A study of Mus musculus with 6 samples.

Results

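*Myod1*, *Myf5*, *Myog*, *Myf6*, *Pax7*, *Pax3*, *Mef2a*, *Mef2c* and *Six4*, 9 genes for transcription factors of skeletal muscle formation, were examined in newborn parietal bone. They were taken by gene symbol from a list, out of the 44556 genes counted in every library, and all 9 of them were among the 15600 genes that passed the filter on low counts. The study asked how deletion of *Stat3* in osteoblasts changes gene expression in the calvaria. RNA was collected from C57BL/6 newborns of the genotypes OsxCre (3 libraries) and OsxCre;Stat3fl/fl (3 libraries), which were littermates. Both genotypes carry OsxCre, a Cre recombinase driven by *Osx* (Osterix) in osteoblast precursors, and the second also carries floxed *Stat3* alleles. The driver is not one of the muscle lineage. The factors described here were read from whole tissue, in which the cells of the designed deletion and other cells are not told apart.

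Skeletal muscle forms through a cascade of DNA-binding proteins. The paired-box factors *Pax3* and *Pax7* mark muscle precursors, and *Pax7* marks the satellite cells that persist beside the fibres. *Myf5* and *Myod1* commit precursors to the muscle fate, *Myog* (myogenin) drives the entry of committed cells into differentiation, and *Myf6* (MRF4) acts in differentiating and mature fibres. These 4 basic helix-loop-helix proteins, the MyoD family, bind the E-box CANNTG together with E-proteins. The MADS-box factors *Mef2a* and *Mef2c* act with them on muscle genes and are also expressed outside muscle, and the homeodomain factor *Six4* acts with Eya cofactors on *Myog* and other muscle genes. The parietal bone gives attachment to muscle of the head.

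The promoter of *Myog* is a textbook meeting point of these factors, and its sequence is shown because binding letters for 3 of the families occur in it. The sequence is the 250 bases before the annotated start (RefSeq, GRCm38.p6, chr1:134289754-134290003, plus strand), 5′ to 3′, with matches to the motifs searched in capitals.
Myog promoter: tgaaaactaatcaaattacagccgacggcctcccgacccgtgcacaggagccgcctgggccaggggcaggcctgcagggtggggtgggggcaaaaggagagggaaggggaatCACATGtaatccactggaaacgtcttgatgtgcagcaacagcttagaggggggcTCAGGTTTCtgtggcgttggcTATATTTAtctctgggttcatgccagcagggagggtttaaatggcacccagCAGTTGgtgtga
The searches covered both strands, and no match overlapped another in this window. The E-box letters CANNTG stood at -138 to -133 and at -12 to -7 from the start, where -1 is the last base before it. The letters TCAGGTTTC, the MEF3 site read by *Six4* and its relatives, stood at -84 to -76. A MEF2 core, searched as TA, 4 letters that are each A or T, and TA, stood at -63 to -56. Over 32851 promoter windows of the same length, 66.2% held CANNTG, 0.387% held TCAGGTTTC and 8.56% held the MEF2 core.

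The MEF3 letters also occurred, on the other strand, 99 to 91 bases before an annotated start of *Six4* itself. That stretch is shown with the match in capitals (GRCm38.p6, chr12:73113326-73113354, minus strand), and other *Six4* transcripts start further upstream.
Six4 site: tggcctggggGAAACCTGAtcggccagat
Windows were found for 6 of the 9 genes. Those of *Myf5*, *Pax7* and *Mef2a* held none of the 3 motifs, and 1 of the 3 windows of *Mef2c* held the MEF2 core. These matches are letters in a window and were not tested as binding sites. In GRCm38.p6 *Myf5* and *Myf6* are neighbours on chromosome 10 (107482908 to 107486927 and 107492848 to 107494723), with 5920 bases between them. The exons of none of the 9 genes overlapped exons of another gene in the GENCODE vM1 annotation.

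The libraries held between 8193651 and 12080044 counts on genes, and every library labelled OsxCre;Stat3fl/fl was smaller than every OsxCre library. A floor of 3 counts corresponds to between 0.248 and 0.366 CPM (counts per 1000000 counts), for counting error only. *Stat3* was not lower in the libraries labelled OsxCre;Stat3fl/fl. It had 149, 134 and 141 CPM in OsxCre and 152, 154 and 155 CPM in the libraries labelled OsxCre;Stat3fl/fl. The second genotype lay higher without overlap, as did 10.8% of all genes tested. The log2 fold change was 0.12 (SE 0.07, adjusted p = 0.442, edgeR) after TMM scaling. Without any scaling it was -0.26, where the median of all genes was -0.38. Counts per gene do not single out the floxed exons, and the deletion was designed for part of the cells only, so these libraries are named by their labels throughout. Osteoblast RNA was abundant in every library, with 9875 to 15111 CPM of *Col1a1*, the main collagen of bone. Of 12 osteoblast and osteocyte markers 1, *Ibsp*, was called lower (log2 fold change -0.66, adjusted p = 0.0213, edgeR, between 0.0399 and 0.105 without 1 library) and 0 higher. The shares of all genes tested were 0.481% lower and 0.776% higher. Of the endothelial, neuron, melanocyte, chondrocyte, macrophage, smooth muscle and B-lymphoid markers tested 0 were called, and the most counted were *Pecam1* (endothelial), *Stmn2* (neuron), *Col2a1* (chondrocyte), *Cd68* (macrophage), *Acta2* (smooth muscle) and *Ebf1* (B-lymphoid).

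Muscle RNA came with the bone, and in unequal amounts. A list of 27 structural genes of the muscle fibre (actins, myosins, troponins and the like) took 4.68%, 4.62% and 4.95% of the counts in OsxCre libraries 1, 2 and 3. The same genes took 6.21%, 7.22% and 5.23% in libraries 1, 2 and 3 labelled OsxCre;Stat3fl/fl, so that the genotypes did not overlap. After TMM scaling 24 of the 27 had positive log2 fold changes, with a median of 0.50. At an adjusted p under 0.05 (edgeR), 1 was called higher and 1 lower, beside 0.776% and 0.481% of all genes tested. Without scaling the median of the list was 0.12, where that of all genes was -0.38. The most counted was *Acta1*, the actin of the fibre, at 10841 to 16641 CPM, and none of the 27 was at 0 in any library. In bulk samples fewer cells of a type and less RNA per cell cannot be told apart, and how much muscle was dissected with each bone is not given in the sources used here. The part of this muscle RNA in the results that follow was not tested, so each factor is given in CPM and then per muscle fibre count.

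No factor passed the test between the genotypes. With edgeR's quasi-likelihood test and Benjamini-Hochberg adjustment over the 15600 genes, 0 of the 9 were lower and 0 were higher at an adjusted p under 0.05, where 0.481% and 0.776% of all genes tested were. DESeq2 and limma-voom also called 0 of the 9. At an unadjusted p under 0.05, 1 factor, *Six4*, was lower and 0 were higher, beside 8.34% and 8.03% of all genes tested. The 3 libraries of each genotype did not overlap for 1 factor that was lower, *Six4*, and for 1 that was higher, *Mef2c*, beside 12.2% and 10.8% of all genes. These shares are near the background, so the counts do not set the factors apart. The median log2 fold change of the 9 was 0.22, beside -0.00 over all genes tested, and it was 0.01 without OsxCre;Stat3fl/fl library 2.

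**Figure D1:**
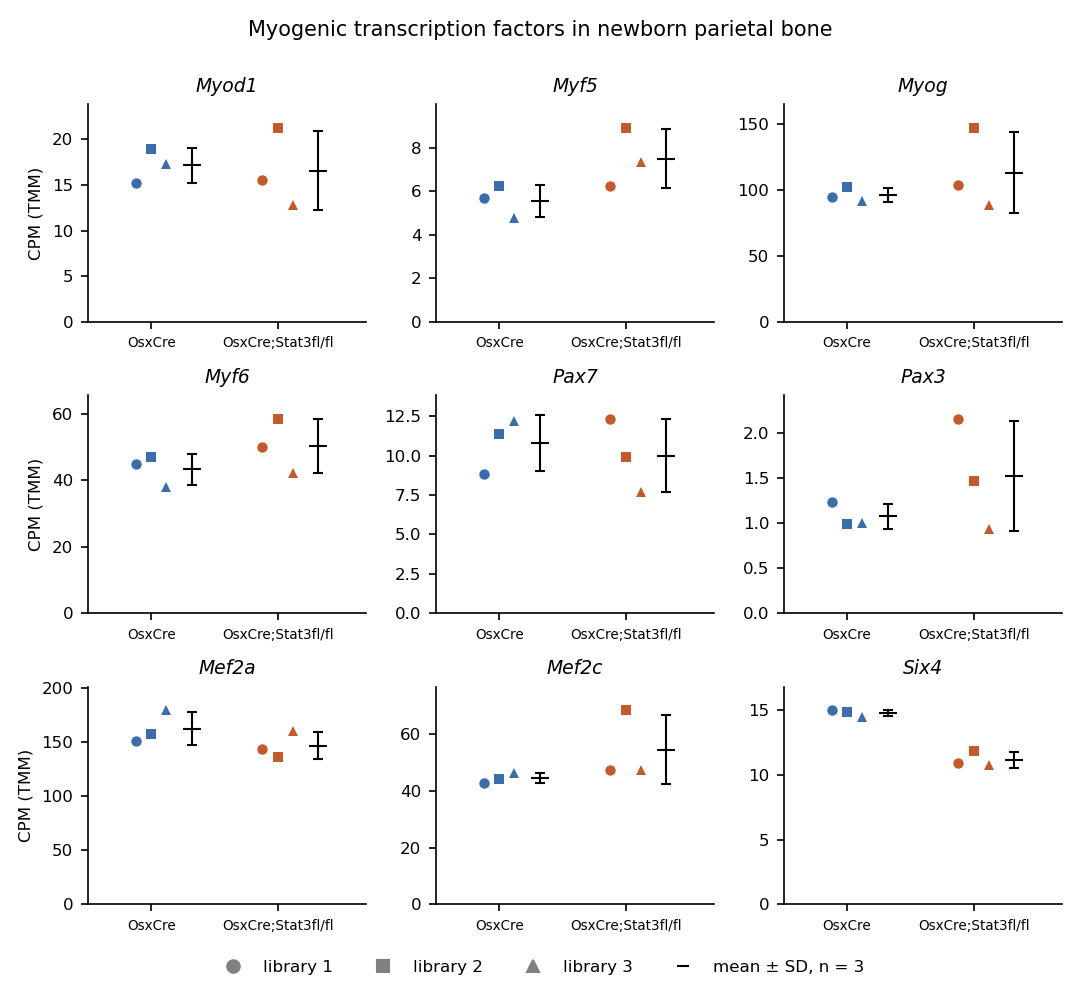
CPM (TMM-scaled, linear axes from 0) of the 9 factors in each library, with 3 OsxCre libraries on the left of each panel, 3 labelled OsxCre;Stat3fl/fl on the right, and the mean ± SD beside them. Six4 separates the genotypes downwards (10.7 to 11.9 against 14.5 to 14.995 CPM), and OsxCre;Stat3fl/fl library 2 (square) is the highest for Myod1, Myf5, Myog, Myf6 and Mef2c.

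*Six4* had 14.995, 14.8 and 14.5 CPM in OsxCre libraries 1, 2 and 3, and 10.9, 11.9 and 10.7 CPM in the libraries labelled OsxCre;Stat3fl/fl. All 3 OsxCre values lay above all 3 of the others, and the spread within each genotype was small (SD 0.263 and 0.609, n = 3). The fold was 0.756, with a 95% interval of 0.623 to 0.917, and the log2 fold change was -0.40 (SE 0.12, adjusted p = 0.158, edgeR). *Six4* ranked 1015 by p among the 15600 genes. It is a homeodomain partner of Eya proteins that acts in muscle precursors and fibres and is expressed in other tissues too. The interval stayed below 1 before adjustment over all genes and the call did not survive it.

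*Mef2c*, which acts in muscle and also in endothelial cells, chondrocytes and osteocytes, had a positive difference that did not pass. It had 42.9, 44.2 and 46.5 CPM in OsxCre and 47.5, 68.6 and 47.6 CPM in the libraries labelled OsxCre;Stat3fl/fl. Libraries 1 and 3 of the second genotype lay just above the highest OsxCre value, and library 2 lay far above the rest. The log2 fold change was 0.29 (SE 0.15, adjusted p = 0.367, edgeR), and 0.10 without OsxCre;Stat3fl/fl library 2. It was -0.09 without scaling and -0.15 when libraries were scaled by muscle fibre counts, where the median of all genes was -0.38 and -0.41. *Mef2a*, the more widely expressed of the pair, had 150, 157 and 179 CPM in OsxCre and 143, 136 and 160 CPM in the other genotype, and the genotypes overlapped. Its log2 fold change was -0.15 (SE 0.10, adjusted p = 0.493, edgeR). The ratio of *Mef2c* to *Mef2a* counts needs no scaling, and it was 0.285, 0.281 and 0.259 in OsxCre and 0.332, 0.506 and 0.298 in the libraries labelled OsxCre;Stat3fl/fl. These ratios did not overlap and differed by 0.42 on the log2 scale (exact permutation test, two-sided, p = 0.1, the smallest that 3 libraries against 3 allow, 0.2 after adjustment over 6 ratios). Without OsxCre;Stat3fl/fl library 2 the difference was 0.19.

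Within the MyoD family, *Myog* was the leading transcript. It had 94.8, 102 and 91.2 CPM in OsxCre and 104, 147 and 88.2 CPM in the libraries labelled OsxCre;Stat3fl/fl, so the second genotype held both the highest and the lowest library. The log2 fold change was 0.24 (SE 0.17, adjusted p = 0.551, edgeR). *Myf6* had 44.8, 47.0 and 37.9 CPM in OsxCre and 49.8, 58.4 and 42.2 CPM in the other genotype. It overlapped between genotypes, with a log2 fold change of 0.22 (SE 0.14, adjusted p = 0.480, edgeR). Both of these values turned negative when no scaling or scaling by muscle fibre counts was used, where the median of all genes was -0.38 and -0.41.

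*Myod1*, a factor of commitment, had 15.2, 19.0 and 17.3 CPM in OsxCre and 15.6, 21.3 and 12.8 CPM in the libraries labelled OsxCre;Stat3fl/fl. The OsxCre values lay inside the range of the others. Its log2 fold change was -0.05 with a 95% interval of -0.50 to 0.40 (adjusted p = 0.931, edgeR), so a change of up to that size in either direction is within the error. *Myf5*, the other commitment factor and the least abundant of the family, had 5.69, 6.23 and 4.77 CPM in OsxCre and 6.23, 8.92 and 7.35 CPM in the second genotype. The genotypes met at a single value near 6.23 CPM, and the log2 fold change was 0.43 (SE 0.21, adjusted p = 0.353, edgeR). With muscle fibre scaling the *Myf5* difference was -0.0044, where the median of all genes was -0.41.

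The order of the family members by counts was the same in every library. *Myog* held between 58.5% and 62.4% of the family's counts in the 6 libraries, *Myf6* between 24.8% and 28.4%, *Myod1* between 8.52% and 11.5%, and *Myf5* between 3.15% and 4.88%. The *Myod1* share did not overlap between the genotypes. It was 9.46%, 10.9% and 11.5% in OsxCre and 8.87%, 9.02% and 8.52% in the libraries labelled OsxCre;Stat3fl/fl. Within these ranges, *Myog* counts per *Myod1* count were 6.24, 5.37 and 5.27 in OsxCre and 6.68, 6.91 and 6.87 in the libraries labelled OsxCre;Stat3fl/fl. *Myf5* counts per *Myod1* count were 0.375, 0.328 and 0.275 in OsxCre and 0.400, 0.420 and 0.573 in the second genotype. For both ratios the genotypes did not overlap, with log2 differences of 0.28 and 0.50 (exact permutation p = 0.1 each, 0.2 adjusted). *Myf6* and *Pax7* per *Myod1* count and *Pax3* per *Pax7* count overlapped. Both ratios that did not overlap share *Myod1* as their denominator, and their p cannot reach 0.05 with this number of libraries.

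In the cascade described above, the paired-box genes stand at the precursor end. Which cells of the tissue their counts came from was not tested. *Pax7* had 8.83, 11.4 and 12.2 CPM in OsxCre and 12.3, 9.90 and 7.70 CPM in the libraries labelled OsxCre;Stat3fl/fl, with the highest and the lowest value in the second genotype. The log2 fold change was -0.12 (SE 0.21, adjusted p = 0.844, edgeR). *Pax3* was near the limit of these libraries, with 13, 10 and 12 counts in OsxCre and 18, 12 and 8 counts in the second genotype. OsxCre;Stat3fl/fl library 1, with the most *Pax3* counts, also had the highest sum of melanocyte and neural crest markers. That sum was 139 CPM, where the others ranged from 57.6 to 94.0 CPM. The part of such cells in the *Pax3* counts was not tested. The log2 fold change of *Pax3* was 0.49 (SE 0.38, adjusted p = 0.573, edgeR) with a 95% interval of -0.38 to 1.36. No difference in *Pax3* was found, and the interval leaves room for one in either direction.

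**Figure D2:**
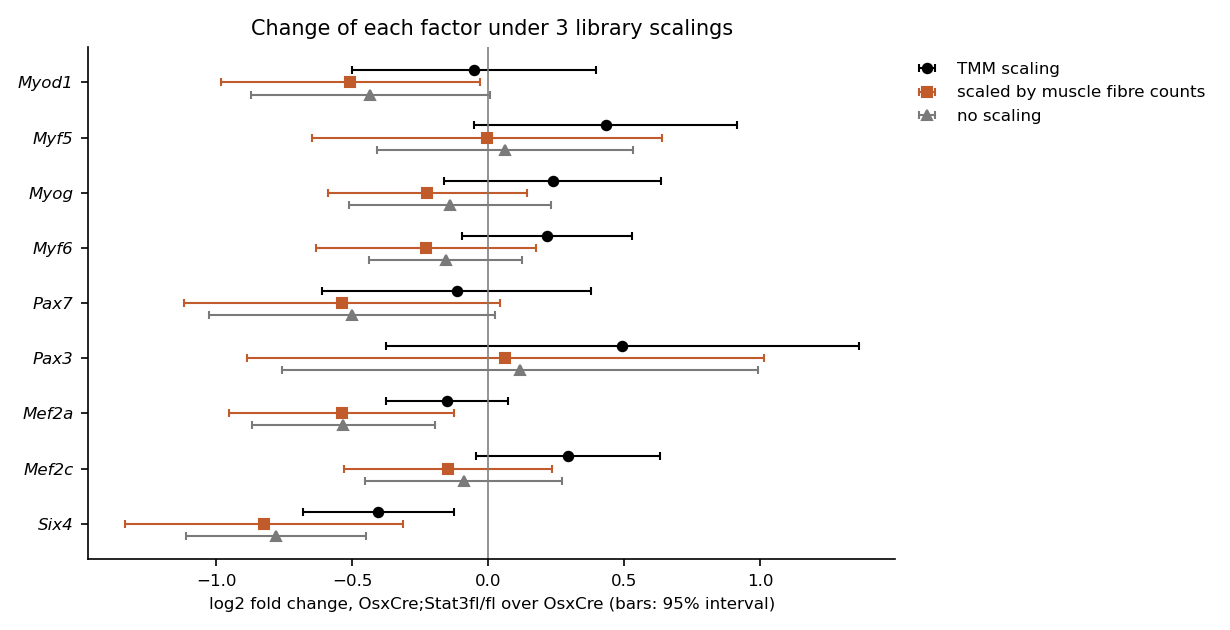
Log2 fold change (libraries labelled OsxCre;Stat3fl/fl over OsxCre, horizontal axis) of each factor with its 95% interval, under TMM scaling (circles), scaling by muscle fibre counts (squares) and no scaling (triangles). Six4 lies below 0 under all 3 scalings (-0.40, -0.82 and -0.78), and Myf5, Myog, Myf6 and Mef2c change sign between them.

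Set beside muscle fibre RNA, the median of all genes and that of the factors lay below 0. When the libraries were scaled by their muscle fibre counts, 1 of the 9, *Six4*, was lower at an adjusted p under 0.05 (log2 fold change -0.82, adjusted p = 0.0489, edgeR), beside 7.06% of all genes. At an unadjusted p under 0.05, 3 were lower, beside 36.4% of all genes: *Six4*, *Mef2a* (-0.54) and *Myod1* (-0.51). This scaling moved the median of all genes to -0.41 and that of the 9 factors to -0.23, so only *Six4*, *Mef2a*, *Myod1* and *Pax7* (-0.54) lay below the general shift. Both counts are near these backgrounds.

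Per 10000 muscle fibre counts, *Six4* had 3.25, 3.35 and 2.89 counts in OsxCre and 1.79, 1.53 and 2.06 in the libraries labelled OsxCre;Stat3fl/fl. *Myod1* had 3.29, 4.29 and 3.46 against 2.55, 2.75 and 2.46, and *Mef2a* had 32.6, 35.5 and 35.8 against 23.5, 17.5 and 30.6. *Mef2c* had 9.31, 9.996 and 9.28 against 7.80, 8.86 and 9.12. These 4 of the 9 factors were lower without overlap, beside 44.9% of all genes tested against the same denominator, with log2 differences of -0.83, -0.50, -0.57 and -0.15 (exact permutation p = 0.1 each, 0.225 adjusted over 9). The *Mef2c* difference was smaller than the shift of all genes (-0.41). Beside the geometric mean of the same muscle fibre genes, *Mef2c* overlapped between the genotypes (-0.04). *Six4* (-0.72), *Mef2a* (-0.46) and *Myod1* (-0.39) stayed lower without overlap there (exact permutation p = 0.1 each, 0.3 adjusted over 9). The share of all genes was not computed for that denominator. *Myog* (-0.22), *Myf6* (-0.22), *Pax7* (-0.55), *Myf5* (-0.00) and *Pax3* (-0.00) overlapped. Beside counts of *Des* (desmin, the intermediate filament of muscle, itself at 1484 to 2276 CPM) 1 of the 9, *Six4*, was lower without overlap, with a log2 difference of -0.51 (exact permutation p = 0.1, 0.5 adjusted over 9), beside 10.1% of all genes.

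**Figure D3:**
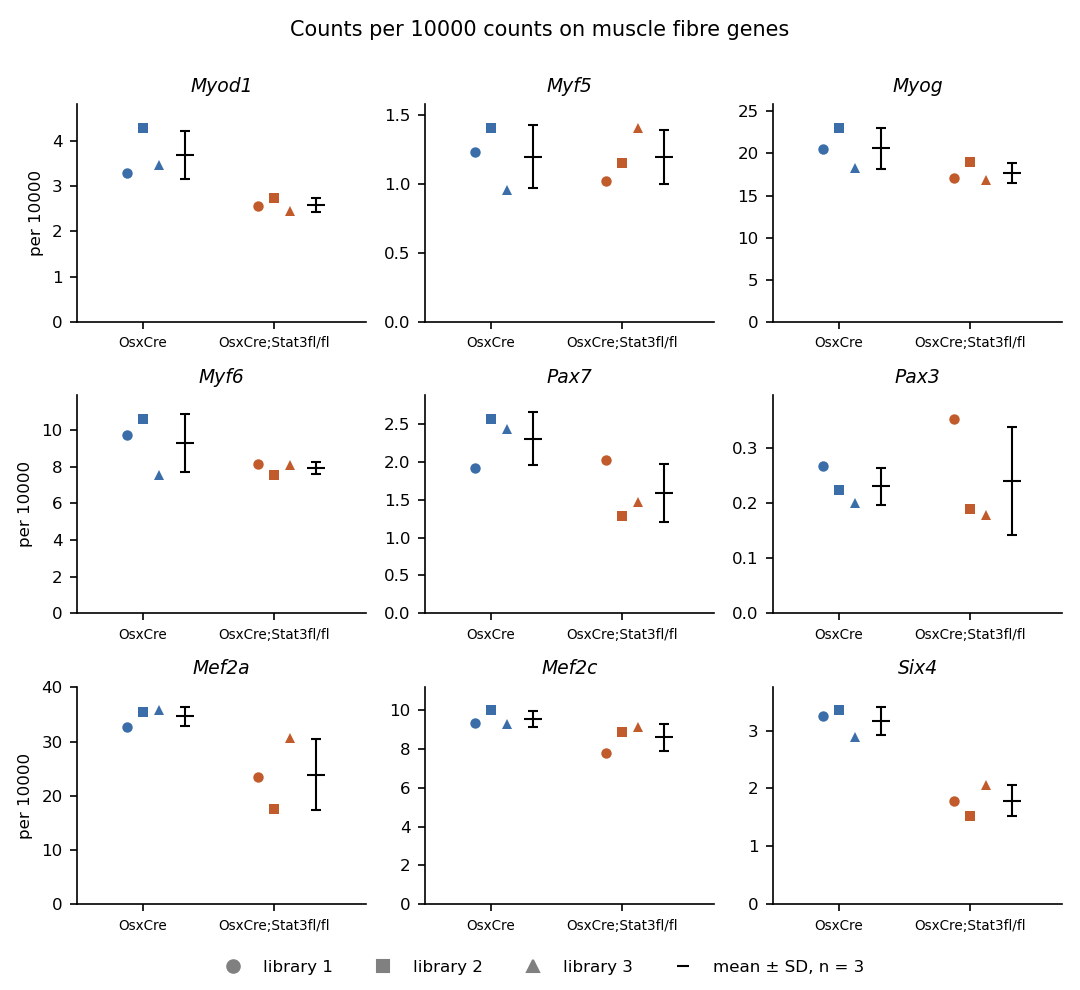
Counts of each factor per 10000 counts on the 27 muscle fibre genes (linear axes from 0), by library and genotype, with the mean ± SD. Myod1, Mef2a, Mef2c and Six4 do not overlap between the genotypes, and the Six4 values are 2.89 to 3.35 in OsxCre and 1.53 to 2.06 in the libraries labelled OsxCre;Stat3fl/fl.

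Library 2 labelled OsxCre;Stat3fl/fl stood apart in these genes. It had the largest share of muscle fibre counts (7.22%) and the highest CPM of *Myod1*, *Myf5*, *Myog*, *Myf6* and *Mef2c*. It was also the library with the lowest sum of neuron markers, 34.8 CPM, where the others ranged from 141 to 610 CPM. Without it *Myog* was at 0.0083, *Myf6* at 0.098, *Myf5* at 0.30, *Mef2c* at 0.10 and *Myod1* at -0.27 on the log2 scale, the median of the 9 factors was 0.01, and *Six4* was at -0.44 (adjusted p = 0.221, edgeR). Without OsxCre;Stat3fl/fl library 3, *Myog* (0.39), *Myf6* (0.33) and *Mef2c* (0.38) had an unadjusted p under 0.05, with adjusted p of 0.370 to 0.390 (edgeR). Of the 16045 genes tested in that fit, 999 were higher at an unadjusted p under 0.05.

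Compared per kilobase of exon, the factors spanned a wide range of levels. Mean CPM per kilobase over the 6 libraries was 70.7 for *Myog*, 37.4 for *Myf6*, 24.4 for *Mef2a*, 9.09 for *Myod1*, 6.70 for *Mef2c*, 3.14 for *Myf5*, 2.31 for *Six4*, 1.77 for *Pax7* and 0.210 for *Pax3*. The ranges over libraries overlapped for *Myod1* and *Mef2c*, for *Myf5* and *Six4*, and for *Six4* and *Pax7*. The other neighbours in this order did not overlap in any library. Per kilobase in whole-tissue RNA, *Myog* and *Myf6*, the factors of differentiating cells and fibres, stood above *Myod1* and *Myf5*, the factors of commitment. *Pax7* and *Pax3*, the factors of precursors, were the lowest. The place of *Pax7* below *Myf5* rests on the exon lengths, 5.862 and 2.083 kilobases. In CPM *Pax7* averaged 10.8 in OsxCre and 9.98 in the other genotype, above *Myf5* at 5.56 and 7.50. The lengths are those of GENCODE vM1, and the annotation used for counting is not given.

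**Figure D4:**
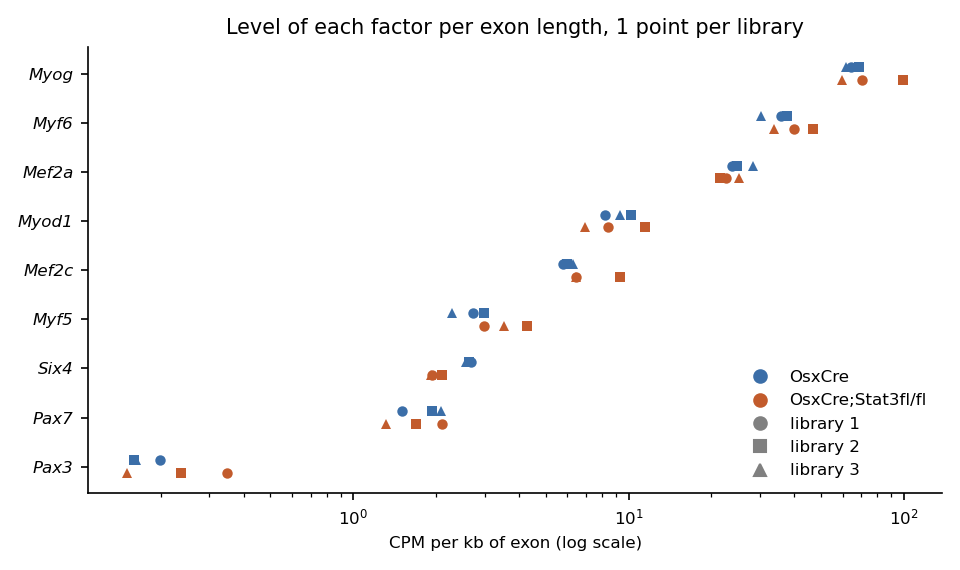
CPM per kilobase of exon (log axis) of each factor, 1 point per library, coloured by genotype. The order runs from Myog (59.6 to 99.4) down to Pax3 (0.151 to 0.348), and the genotypes interleave for every factor except Six4 and Mef2c.

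The partners and inhibitors of these factors showed no call in the TMM-scaled edgeR fit. Of 8 other genes of the Mef2, *Six4* and Eya families tested, 0 passed at an adjusted p under 0.05 in either direction, with a median log2 fold change of -0.03, and the most counted was *Mef2d* at 147 to 192 CPM. The 3 E-proteins, which pair with the MyoD family on the E-box, had 0 calls, and the most counted, *Tcf12*, lay between 137 and 156 CPM. Of 9 regulators of head and limb muscle precursors 0 passed, and *Nfix*, a switch to the fetal muscle programme, had 158 to 205 CPM. All 17 inhibitors of the MyoD family and of Mef2 were tested, and 0 were called in that fit, with a median of -0.06. *Hdac7*, a class IIa histone deacetylase that represses Mef2, was the most counted inhibitor, at 126 to 184 CPM.

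Some inhibitors were chosen for naming after their values were seen. *Id1*, which sequesters E-proteins, had 71.8, 58.1 and 68.3 CPM in OsxCre and 109, 95.1 and 91.0 CPM in the libraries labelled OsxCre;Stat3fl/fl. The genotypes did not overlap, with a log2 fold change of 0.57 (adjusted p = 0.0542, edgeR) and an adjusted p of 0.00139 by DESeq2. By edgeR the adjusted p of *Id1* was 0.0483 with TMM without muscle genes and 0.0114 without the filter on low counts. The log2 fold change was 0.19 without scaling and 0.17 with muscle fibre scaling (adjusted p = 0.288 and 0.497, edgeR). Under these 2 scalings the median of all genes was -0.38 and -0.41. When 1 library was left out, the adjusted p of *Id1* was between 0.0974 and 0.146 (edgeR). The deacetylases *Hdac4* (-0.40) and *Hdac5* (0.34) went opposite ways, at adjusted p of 0.156 and 0.103 by edgeR and 0.157 and 0.0405 by DESeq2. *Hdac5* was at -0.05 without scaling and -0.07 with muscle fibre scaling, again beside medians of all genes of -0.38 and -0.41. At an unadjusted p under 0.05, 2 of the 17 inhibitors were lower and 4 were higher, beside 8.34% and 8.03% of all genes.

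Of the genes downstream, a few passed the test and most did not. Among 13 early differentiation genes tested, 2 were called higher and 0 lower, beside 0.776% and 0.481% of all genes tested. The list's median was 0.34 on the log2 scale. *Actc1*, the actin of the heart and of developing skeletal muscle, had 375, 372 and 441 CPM in OsxCre and 1253, 1834 and 912 CPM in the libraries labelled OsxCre;Stat3fl/fl, without overlap (log2 fold change 1.75, SE 0.24, adjusted p = 0.01998, edgeR). *Myh3*, the embryonic myosin heavy chain, rose with it (log2 fold change 1.71, SE 0.23, adjusted p = 0.0204, edgeR), and stands in the fibre list too. *Tmem8c* (myomaker, the fusion protein), named after its values were seen, had a log2 fold change of 0.60 and an adjusted p of 0.177 (edgeR), and *Des* was at 0.12. Of the 13, 10 had positive and 3 negative log2 fold changes. At an unadjusted p under 0.05, 5 were higher and 2 lower, beside 8.03% and 8.34% of all genes. The 2 lower genes were *Chrnd* (-0.82, adjusted p = 0.157, edgeR) and *Rapsn* (-0.32, adjusted p = 0.280, edgeR), both without overlap. Without scaling the median of the early genes was -0.04, where that of all genes was -0.38, and *Actc1* and *Myh3* stayed positive.

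Among 11 muscle genes downstream of Mef2, 1 was called higher and 1 lower, beside 0.776% and 0.481% of all genes tested. The median was 0.01. At an unadjusted p under 0.05 (edgeR), 1 was higher and 1 lower, beside 8.03% and 8.34% of all genes. *Hspb7*, a small heat shock protein of muscle, rose 2.04-fold (log2 fold change 1.03, adjusted p = 0.0213, edgeR) and *Ky*, a muscle gene named for kyphoscoliosis, fell by 1.84 on the log2 scale (adjusted p = 0.0293, edgeR), while *Myom1*, the most counted, was at 412 to 603 CPM. In the fibre list the gene called lower was *Myh4*, the fast IIb myosin heavy chain, with a log2 fold change of -3.61. Of 11 genes of muscle precursors (satellite cells) 0 were called, with a median of 0.14, and *Peg3* was the most counted at 186 to 293 CPM. Without scaling the medians of the Mef2 target and precursor lists were -0.37 and -0.25, near the -0.38 of all genes. Leaving out 1 library turned none of these directions and ended several calls. Without OsxCre library 1 the adjusted p of *Actc1*, *Myh3*, *Hspb7* and *Ky* was 0.0967. Without OsxCre library 2 it was 0.0691, 0.0690 and 0.0716 for *Actc1*, *Myh3* and *Hspb7*, and without OsxCre library 3 it was 0.0621 for *Ky*. Without OsxCre;Stat3fl/fl library 1 it was between 0.0565 and 0.0938 for these 4 genes, and without OsxCre;Stat3fl/fl library 3 it was 0.0580, 0.0677 and 0.102 for *Myh3*, *Hspb7* and *Ky*. *Myh4* was called in all 6 such fits.

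**Figure D5:**
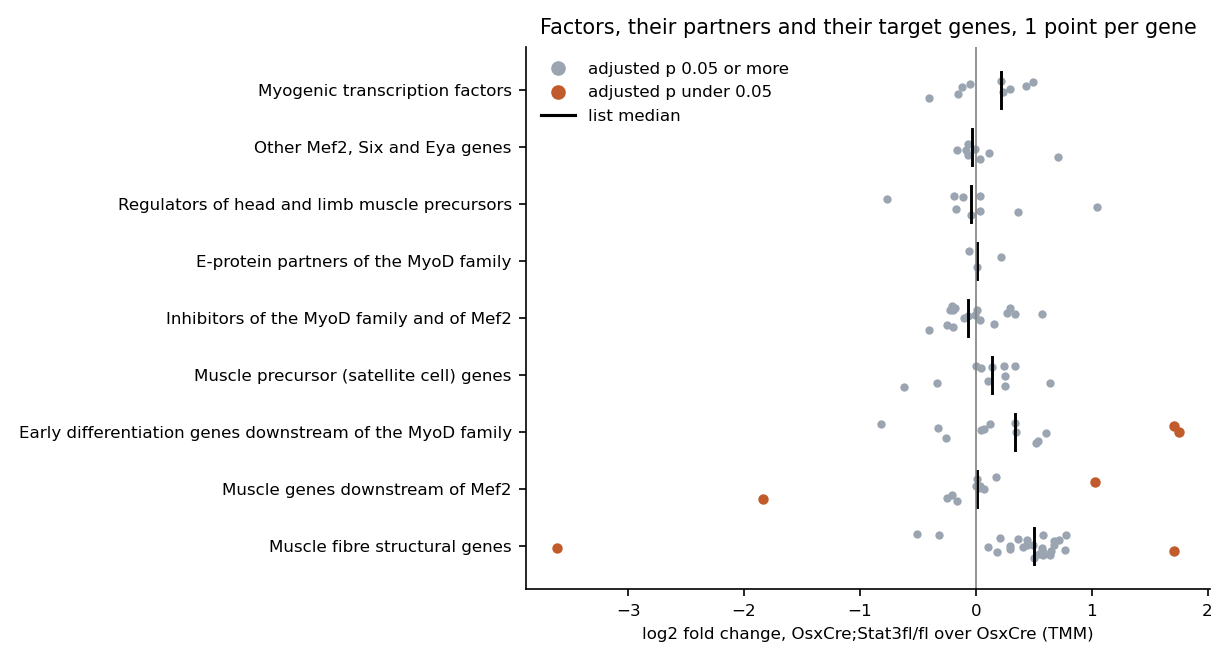
Log2 fold change (libraries labelled OsxCre;Stat3fl/fl over OsxCre, TMM-scaled, horizontal axis) of each gene tested in 9 lists, with the median as a black line and genes at an adjusted p under 0.05 in orange. The 9 factors lie between -0.40 and 0.49, and the called genes Actc1, Myh3, Hspb7, Ky and Myh4 lie outside that range.

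Genes with the most similar pattern over the 6 libraries were ranked by Pearson's r of log2(CPM + 1) among about 10359 genes with a mean of at least 10 CPM. With 6 points and libraries that differ in depth and muscle content, these values describe the libraries only. The pattern of *Myog* was closest to that of *Apobec2* (r = 0.997) and *Rnf114* (0.994), followed by *Gm7325*, the gene of the fusion peptide myomixer (0.986). *Myod1* was closest to *Rtn2* (0.996), *Six4* to *BC017643* (0.996), *Mef2c* to *AU040320* (0.995), *Myf5* to *Cct6a* (0.993), *Pax3* to *Gm5045* (0.990), *Mef2a* to *Stfa1* (0.990), *Myf6* to *Lsm6* (0.984) and *Pax7* to *Trpm4* (0.983). Among the factors themselves, *Myog* ran closest to *Myf6* (r = 0.91) and *Mef2c* (0.90), and *Myf6* and *Mef2a* ran opposite (-0.95).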

How the data were processed

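RNA-seq was carried out on newborn parietal bone, with 3 libraries per genotype. The methods give 3 mice per genotype, and the labels do not tie a library to an animal, so replicates were numbered in the order of the labels. The authors deposited whole-number counts per gene symbol, without normalization. The labels' processing notes name HISAT2 and GRCm38, and the paper's methods name TopHat and mm9 with FPKM values. The counting program, its strand setting and its annotation are not given in the sources used here. The labels give polyadenylated RNA and the methods give total RNA as the input.

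Low counts were removed by filterByExpr (at least 10 counts, 15 in total), and the scaling was TMM. The genotypes were compared with edgeR 4.0.16 (quasi-likelihood, two-sided, Benjamini-Hochberg over 15600 genes, call at an adjusted p under 0.05) in R 4.3.3. CPM values use TMM-scaled totals. Alternatives were other scalings and filters, DESeq2 1.42.0, limma-voom (limma 3.58.1), the replicate number as a block and leaving out each library. Ratios of counts were compared by exact permutation tests. A check of paired numbers gave correlations of deviations of -0.10, -0.53 and -0.07 for same-numbered libraries. Differently numbered libraries were not compared, so this check does not settle whether the numbers pair littermates. The comparison of the genotypes above was made without pairing. The fits were tested on simulated data. Chi-square per degree of freedom between replicates was 7.51 to 15.6, so no library was counted as a duplicate.

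The members and lists were chosen with earlier results of these data known. Named genes were the 9 factors, from each other list the 2 called lower and 2 called higher with the smallest p and the most counted gene, and for likeness the 3 genes with the highest r. The most counted gene of 1 marker list is not reported here. Myomaker and myomixer are listed under the older symbols *Tmem8c* and *Gm7325*. Exon lengths came from GENCODE vM1 and positions and promoters from RefSeq, GRCm38.p6.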

Additional observations from a re-analysis of the deposited data

How the results depend on the processing

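Each of the 9 factors was compared with its main value in 17 other fits (scalings, filters, tests and left-out libraries). Over these comparisons of 1 factor in 1 fit, direction and side of the threshold were kept in 140. The sign changed in 10, and the factor newly passed in 3. *Six4*, *Mef2a* and *Pax3* changed sign in no fit, and *Six4* ranged from -0.82 to -0.37. Without scaling, 2 factors were lower at an adjusted p under 0.05 (*Six4* and *Mef2a*), beside 5451 of the 15600 genes tested. At an unadjusted p under 0.05, 2 were lower, beside 7619 of the 15600. The values of *Myog*, *Myf6*, *Mef2c*, *Hdac5* and *Stat3* without scaling were -0.14, -0.16, -0.090, -0.046 and -0.26. Scaled by muscle fibre counts, 1 factor was lower at an adjusted p, beside 1102 of the 15600 genes, and 3 at an unadjusted p, beside 5681. The values of *Myf5*, *Myog*, *Myf6*, *Mef2c*, *Hdac5* and *Stat3* were then -0.0044, -0.22, -0.23, -0.15, -0.067 and -0.29. These 2 scalings move the median of all genes by construction, to -0.38 and -0.41. Without a filter on low counts 1 factor, *Mef2c*, was higher at an unadjusted p, beside 1488 of the 28016 genes tested. When 1 library was left out, 0 to 3 factors were higher at an unadjusted p, beside 957 to 1336 of all genes tested. In those fits *Myod1* ranged from -0.27 to 0.10 and *Pax7* from -0.30 to 0.042. In the fit with the replicate block 1 factor was lower at an unadjusted p, beside 1068 of the 15600 genes, and 0 at an adjusted p. Of all genes 1 was called lower and 0 higher under the block, against 75 and 121 without it. *Actc1*, *Myh3*, *Ky*, *Hspb7* and *Ibsp* lost their calls under the block. The ratios moved by more than the replicate spread in 9 comparisons of 1 ratio in 1 setting and did not in 108. The cause of these changes was not tested. *Pax3* rests on 8 to 18 counts per library, and the part of depth in its wide interval was not tested.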
